A study of Mus musculus with 11 samples.

Results

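The mRNAs of 10 transcription factors that neuronal activity induces were followed in ribosome pull-downs from excitatory neurons of the young mouse forebrain. The genes were Fos, Fosb, Junb, Egr1, Egr2, Egr3, Egr4, Npas4, Nr4a1 and Nr4a3, taken by symbol from a table of 77179 Ensembl gene IDs, and all 10 were among the 19008 genes tested. In NEX-RiboTag mice, Cre recombinase expressed from the NEX (Neurod6) locus, crossed from a C57BL/6J background, switches on an eGFP-tagged form of the ribosomal protein Rpl10a in excitatory neurons of cortex and hippocampus. Beads against GFP retrieve the tagged ribosomes with their mRNA (IP), and the genotype of every IP library was NEX-Cre;Rpl10aeGFP/eGFP. There were 3 IP libraries from each of postnatal days 7, 14 and 21 (P7, P14 and P21). Whole-tissue RNA of the same dissection (input) is represented by 2 libraries of P7, of which replicate 1 had the Cre-positive genotype and replicate 2 carried Rpl10aeGFP/eGFP with a name that marks it as lacking Cre. Cortex and hippocampus were processed as 1 tissue, no treatment or stimulus is named, and the labels call the IP libraries biological replicates without saying whether each came from 1 animal or a pool. The p-values therefore measure the spread between these libraries.

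Immediate-early genes are transcribed within minutes of a rise in synaptic input, by transcription factors already present in the resting neuron, and their mRNAs are short-lived. Calcium entry and kinase cascades activate CREB, which binds cAMP response elements (CREs), and SRF with its Elk partners, which bind CArG boxes, and these switch on the first wave. The encoded proteins then bind the promoters and enhancers of later genes: Fos and Jun family proteins as AP-1 dimers, Egr proteins through zinc fingers on GC-rich sites, Npas4 as a bHLH-PAS protein together with an Arnt partner, and Nr4a proteins as orphan nuclear receptors. In cortex and hippocampus these genes are known for marking recently active neurons, for sensory experience-driven plasticity and for memory.

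The regions just upstream of the start sites were searched for these elements. The 250 bases before the annotated start were taken from RefSeq promoters of assembly GRCm38.p6, an older build than the mm39 named for the deposited values. Windows were found for 8 of the 10 genes (12 windows, because Egr2 has 5 annotated starts), and no sequence is shown for Egr1 or Egr3. Some windows of Egr2 overlap, so the same cores and CArG box were counted in more than 1 of them. The Egr2 window at chr10:67537316-67537565 overlaps none of the others with a CArG box, and held a separate CArG box. The CRE core TGACG, on either strand, occurred in 10 of the 12 windows and in at least 1 window of all 8 genes, against 17.8% of 32851 windows and 19.8% of 27025 genes in the whole table. The members' windows also held more CG dinucleotides, 15 to 34 each with a median of 17.5, against a median of 6.0 over all windows, and the part of this composition in the count of cores was not tested. The full palindrome TGACGTCA was in none of the 12 windows (1.55% of all windows), nor were the AP-1 site TGANTCA (6.75%) and the Nr4a site AAAGGTCA (1.34%). CArG boxes, as CCWWWWWWGG with W for A or T, were found in Egr2 alone, in 4 of its 5 windows (1.47% of all windows). The Egr site GCGNGGGCG was in Fosb and Nr4a1 (4.70% of all windows). Motifs were searched on both strands as exact letters, and a match describes letters, not binding. Elements farther upstream and looser matches were not searched, so a window without a match does not show that the gene lacks the element. The windows of 1 gene from each family, and of the 2 Nr4a genes that moved in opposite directions, are printed 5′ to 3′ on the gene's strand for Fos at chr12:85473640-85473889 (plus strand), Egr2 at chr10:67537619-67537868 (plus strand), Npas4 at chr19:4989972-4990221 (minus strand), Nr4a1 at chr15:101266596-101266845 (plus strand) and Nr4a3 at chr4:48045055-48045304 (plus strand). Capitals mark TGACG or its reverse complement CGTCA and, in Egr2, the CArG box.
Fos: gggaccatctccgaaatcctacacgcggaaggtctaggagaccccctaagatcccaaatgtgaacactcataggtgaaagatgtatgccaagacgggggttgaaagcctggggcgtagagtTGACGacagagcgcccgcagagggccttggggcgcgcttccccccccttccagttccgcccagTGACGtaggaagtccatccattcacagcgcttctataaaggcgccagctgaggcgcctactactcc
Egr2: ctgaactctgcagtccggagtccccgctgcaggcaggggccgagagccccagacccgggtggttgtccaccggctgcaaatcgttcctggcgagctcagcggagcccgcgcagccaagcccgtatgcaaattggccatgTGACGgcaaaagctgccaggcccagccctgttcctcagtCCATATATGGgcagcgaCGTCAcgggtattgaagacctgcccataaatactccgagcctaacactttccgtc
Npas4: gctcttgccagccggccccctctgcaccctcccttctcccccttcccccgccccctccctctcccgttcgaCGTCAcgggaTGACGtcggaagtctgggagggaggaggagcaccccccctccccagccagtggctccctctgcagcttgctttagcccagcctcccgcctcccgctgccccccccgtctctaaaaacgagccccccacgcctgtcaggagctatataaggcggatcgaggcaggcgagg
Nr4a1: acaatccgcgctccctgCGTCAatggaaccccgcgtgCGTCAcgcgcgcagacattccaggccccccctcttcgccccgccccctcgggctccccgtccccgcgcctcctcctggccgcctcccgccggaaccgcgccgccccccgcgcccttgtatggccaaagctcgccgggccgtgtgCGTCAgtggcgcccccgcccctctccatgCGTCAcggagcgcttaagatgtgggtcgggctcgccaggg
Nr4a3: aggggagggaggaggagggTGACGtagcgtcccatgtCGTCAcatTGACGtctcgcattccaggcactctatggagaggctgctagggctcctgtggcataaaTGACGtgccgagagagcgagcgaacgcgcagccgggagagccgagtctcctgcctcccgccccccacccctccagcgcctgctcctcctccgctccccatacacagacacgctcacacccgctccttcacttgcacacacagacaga
Nr4a1 and Nr4a3 each held 4 cores, and the Fos, Npas4 and Egr2 windows 2 each. The cores of Fos began 129 and 66 bases before the start. The CArG box in the printed Egr2 window began 72 bases before the third annotated start.

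Values were TPM, which scale each gene to its transcript length and each library to a fixed total. They keep no record of depth, which is unknown here, and so carry no interval for counting error. Tests were made with limma on log2(TPM + 1) over all 11 libraries, with p-values adjusted over the 19008 genes and calls at an adjusted p below 0.05. Log2 changes are on that scale, which understates changes of genes near 1 TPM, and carry standard errors (SE). The pull-down held the excitatory marker Slc17a7, the vesicular glutamate transporter, at 628.1 TPM in P7 IP and 536.9 TPM in P7 input (log2 change 0.21, not called). Neurod6 had means of 152.4 TPM in P7 IP and 112.1 TPM in P7 input (0.47, called). Its input libraries differed, with 89.1 TPM in the Cre-positive replicate 1 and 135.2 TPM in the Cre-negative replicate 2. The P7 IP libraries, all Cre-positive, ran from 143.9 to 167.8 TPM. Any effect of the Cre genotype on the Neurod6 change was not tested. Of the 10 excitatory markers 4 were higher and 2 lower in P7 IP. Of the markers of other cells, 12 of 12 for inhibitory neurons, 10 of 10 for astrocytes, 10 of 10 for microglia, 10 of 10 for vascular cells, 6 of 6 for oligodendrocyte precursors and 8 of 10 for oligodendrocytes were lower in P7 IP than in P7 input. Median log2 changes of these lists lay between -3.43 and -2.42. Over all genes tested, 51.1% were called lower and 18.6% higher, with a median of -0.33. None of these markers other than Opalin was listed at 0 in any library. Fewer cells of a type and less RNA per cell cannot be told apart in such libraries.

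Across the postnatal weeks, the ribosome-bound mRNAs of 9 of the 10 factors were called higher in P14 IP than in P7 IP and none lower, where 26.7% of all genes tested were called higher and 22.8% lower. The rise was largest for Egr1, at 7.42 times its P7 mean, and for Fos, at 6.23 times, and Nr4a3 was not called. For P21 IP against P14 IP, 3 were called higher and 1 lower, where 8.53% of all genes were called higher and 19.7% lower: Fosb, Junb and Egr3 rose by 1.22 to 1.75 times, each with a call that leaving out single libraries removed, and Nr4a3 fell to 0.701 of its P14 mean. In P7 IP against P7 input, 7 were called lower and none higher, where 51.1% of all genes were called lower and 18.6% higher, and Npas4 was lowest at 0.254 of its input mean. The count called lower was 2 with median-of-ratios scaling, where 29.2% of all genes were called lower and 35.9% higher, and 1 with quantile normalisation, where the shares were 31.7% and 32.9%, each with 1 member higher. The shares of all genes for P21 IP against P14 IP were 14.2% higher and 11.9% lower with median-of-ratios scaling, and 12.0% and 14.0% with quantile normalisation. In that comparison Npas4 was called higher under both scalings (0.54 and 0.50), and Fosb, Junb, Egr3 and Nr4a3 kept their calls.

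**Figure D1:**
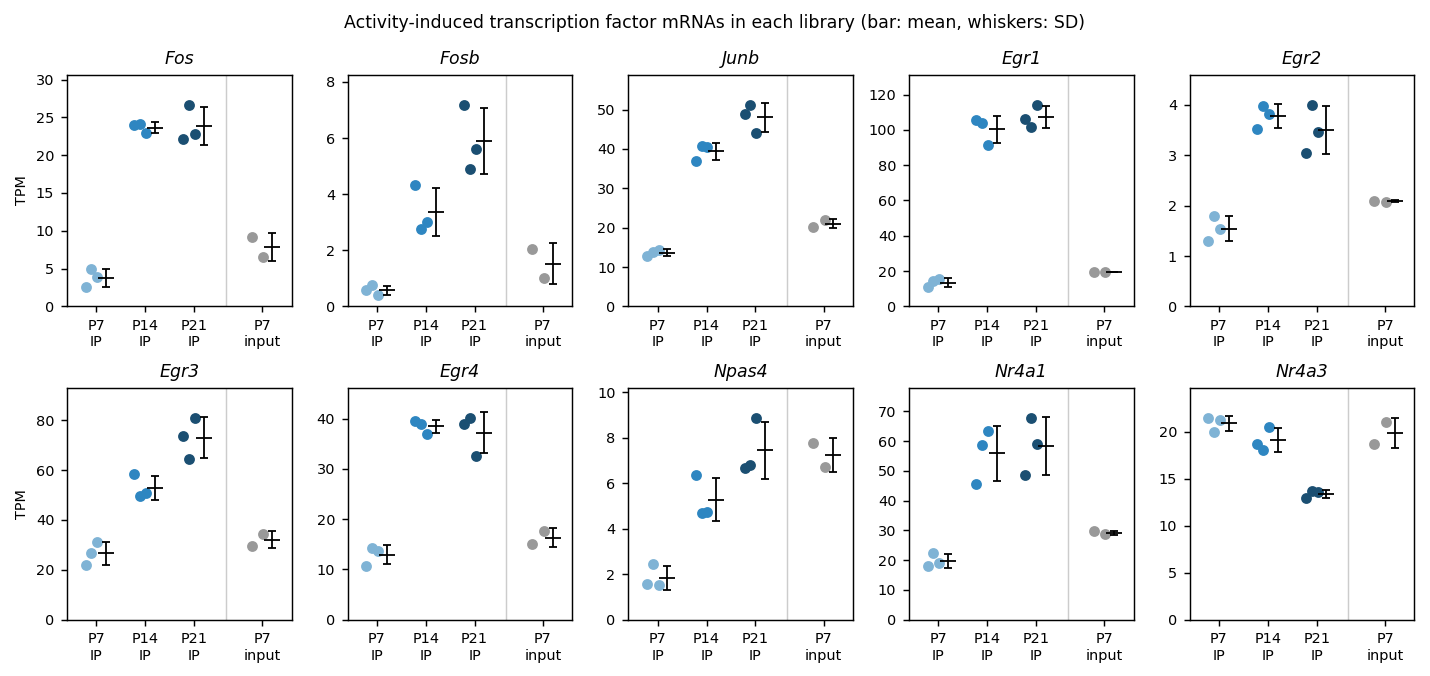
TPM (vertical axes, linear, each from 0) of the 10 genes in the 3 IP libraries of P7, P14 and P21 and the 2 input libraries of P7, with 1 point per library and the mean with SD as a bar with whiskers. For 9 genes all P14 points lie above all P7 IP points, as they do for 31.1% of all genes tested, and for Nr4a3 the P21 points, 12.9 to 13.7 TPM, lie below all others.

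Of the AP-1 genes, Fos encodes the protein that pairs with Jun proteins and is the classical mark of a recently active neuron. Fos (ENSMUSG00000021250) had 2.54, 4.96 and 3.88 TPM in the P7 IP libraries, 24.0, 24.1 and 22.9 TPM in the P14 IP libraries and 22.1, 26.7 and 22.8 TPM in the P21 IP libraries, against 9.14 and 6.59 TPM in the P7 input libraries. Every P14 and P21 library thus exceeded every P7 library of either kind, and the P14 and P21 libraries overlapped. The log2 change was 2.39 ± 0.17 for P14 IP against P7 IP (limma adjusted p = 1.80e-06). For P21 IP against P14 IP it was 0.0075 ± 0.17 (limma adjusted p = 0.984), with a 95% interval of -0.37 to 0.39. Against P7 input, the P7 IP had a change of -0.90 ± 0.19 (limma adjusted p = 0.00164).

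Fosb encodes a relative of Fos whose truncated splice form is known to accumulate with repeated activity, and gene-level values do not separate the forms. Fosb (ENSMUSG00000003545) had 0.569, 0.748 and 0.417 TPM in the P7 IP libraries, 4.34, 2.77 and 2.99 TPM in the P14 IP libraries and 7.18, 4.90 and 5.60 TPM in the P21 IP libraries, against 2.05 and 1.01 TPM in the P7 input libraries. It was the only member under 1 TPM in all 3 P7 IP libraries, and it stepped up at each age with no overlap. Its mean rose 5.82 times for P14 IP over P7 IP (log2 change 1.46 ± 0.19, limma adjusted p = 0.000112) and 1.75 times for P21 IP over P14 IP (0.66 ± 0.19, limma adjusted p = 0.0266). The second of these calls was lost without P14 replicate 2 or 3 or without P21 replicate 1 or 3, with log2 changes of 0.53 to 0.69, and also with a pseudocount of 0.1 TPM (0.80) or no filter on low values. P7 IP was lower than P7 input (log2 change -0.65 ± 0.21, limma adjusted p = 0.0189), but without input replicate 1 it was -0.35 and not called (limma adjusted p = 0.223), and without P7 IP replicate 3 it was -0.58 and not called.

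Junb encodes an early Jun protein that dimerises with Fos proteins. Junb (ENSMUSG00000052837) had 12.7, 13.7 and 14.4 TPM in the P7 IP libraries, 36.95, 40.8 and 40.4 TPM in the P14 IP libraries and 48.9, 51.2 and 44.0 TPM in the P21 IP libraries, against 20.2 and 21.9 TPM in the P7 input libraries. The 3 ages did not overlap, and both P7 input libraries lay between the P7 and P14 IP libraries. The log2 change was 1.47 ± 0.073 for P14 IP against P7 IP (limma adjusted p = 2.83e-07) and 0.28 ± 0.073 for P21 IP against P14 IP (limma adjusted p = 0.0166). The smaller, second step was not called without P14 replicate 1 or without P21 replicate 1 or 2 (0.23 to 0.26). P7 IP lay below P7 input (-0.59 ± 0.081, limma adjusted p = 7.91e-05).

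The Egr genes encode zinc finger factors that bind the same GC-rich site, and Egr1 is the member most used as a readout of plasticity in cortex and hippocampus. Egr1 (ENSMUSG00000038418) had 10.8, 14.3 and 15.4 TPM in the P7 IP libraries, 105.7, 103.7 and 91.5 TPM in the P14 IP libraries and 105.9, 101.7 and 114.2 TPM in the P21 IP libraries, against 19.7 and 19.7 TPM in the P7 input libraries. No other member reached 100 TPM in any library. The log2 change for P14 IP against P7 IP was 2.81 ± 0.11 (limma adjusted p = 1.47e-07), the largest of the 10 genes, while P21 IP against P14 IP gave 0.098 ± 0.11 (limma adjusted p = 0.548). Relative to P7 input, P7 IP was at -0.53 ± 0.12 (limma adjusted p = 0.00279).

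Egr2, which is also known as a regulator of myelination in Schwann cells, was the least abundant Egr gene. Egr2 (ENSMUSG00000037868) had 1.29, 1.79 and 1.53 TPM in the P7 IP libraries, 3.52, 3.98 and 3.83 TPM in the P14 IP libraries and 3.04, 4.00 and 3.45 TPM in the P21 IP libraries, against 2.10 and 2.08 TPM in the P7 input libraries. It rose at P14 (log2 change 0.92 ± 0.11, limma adjusted p = 4.79e-05) and at P21 lay across the P14 range (-0.091 ± 0.11, limma adjusted p = 0.571). The IP libraries of P7 were all below the input, and the difference of -0.29 ± 0.12 missed the threshold (limma adjusted p = 0.0525). It was called lower in 7 of 20 alternative settings, at -0.43 to -0.29, and lay above 0 without a call in 2 others, the median-of-ratios and quantile scalings. A long noncoding gene, Gm32255, overlaps Egr2 in the RefSeq gene table, and since no source used here says whether strand was used, reads of the pair may not have been told apart. No other member overlapped an annotated gene there.

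Egr3, known for roles in memory and in the development of muscle spindles, was the member with the highest mean at P7. Egr3 (ENSMUSG00000033730) had 22.0, 26.8 and 31.1 TPM in the P7 IP libraries, 58.5, 49.5 and 50.9 TPM in the P14 IP libraries and 73.5, 64.5 and 80.9 TPM in the P21 IP libraries, against 29.7 and 34.4 TPM in the P7 input libraries. Its P14 mean was 1.99 times the P7 mean (log2 change 0.97 ± 0.13, limma adjusted p = 9.52e-05). P21 IP was above P14 IP in every library (0.45 ± 0.13, limma adjusted p = 0.0220). That call was lost without P14 replicate 2 or 3 or without P21 replicate 1 or 3 (0.38 to 0.44), and with no filter on low values. IP and input overlapped at P7 (log2 change -0.27 ± 0.14, limma adjusted p = 0.112).

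Egr4 encodes a further neuronal Egr factor. Egr4 (ENSMUSG00000071341) had 10.7, 14.3 and 13.6 TPM in the P7 IP libraries, 39.5, 38.9 and 37.0 TPM in the P14 IP libraries and 39.0, 40.1 and 32.6 TPM in the P21 IP libraries, against 15.1 and 17.6 TPM in the P7 input libraries. At P14 it stood at 2.99 times its P7 mean (log2 change 1.52 ± 0.11, limma adjusted p = 2.00e-06), and P14 and P21 overlapped (-0.052 ± 0.11, limma adjusted p = 0.772). The log2 change in P7 IP against P7 input was -0.33 ± 0.12 (limma adjusted p = 0.0358). It was not called without input replicate 2 (-0.22), without P7 IP replicate 1 (-0.21), with no filter on low values or with only the compared groups in the fit.

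Npas4 is expressed almost exclusively in neurons, responds to calcium entry in particular, and is known for adjusting inhibitory synapses onto the active cell. Npas4 (ENSMUSG00000045903) had 1.57, 2.45 and 1.52 TPM in the P7 IP libraries, 6.36, 4.71 and 4.73 TPM in the P14 IP libraries and 6.66, 6.81 and 8.87 TPM in the P21 IP libraries, against 7.79 and 6.73 TPM in the P7 input libraries. It was the only member whose P7 input libraries lay above all P14 IP libraries and inside the range of the P21 IP libraries, groups that differ in age as well as in fraction and were not tested against each other. The log2 change in P7 IP against P7 input, -1.55 ± 0.18 (limma adjusted p = 1.95e-05), was the lowest of the 10 genes and was called in all 21 alternative settings, at -1.95 to -0.84. For P14 IP against P7 IP it was 1.14 ± 0.16 (limma adjusted p = 0.000150). For P21 IP against P14 IP it was 0.43 ± 0.16, with no overlap between the ages, but the adjusted p of 0.0653 from limma missed the threshold, which 6 of the 21 alternative settings passed.

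The Nr4a genes encode orphan nuclear receptors whose activity is set mainly by how much protein is made. Nr4a1 (ENSMUSG00000023034) had 18.0, 22.5 and 19.0 TPM in the P7 IP libraries, 45.7, 58.7 and 63.4 TPM in the P14 IP libraries and 48.5, 67.8 and 59.0 TPM in the P21 IP libraries, against 29.7 and 28.7 TPM in the P7 input libraries. It rose at P14 (log2 change 1.44 ± 0.14, limma adjusted p = 1.36e-05), and its P14 and P21 libraries overlapped (0.061 ± 0.14, limma adjusted p = 0.788). At P7 the change in IP against input was -0.54 ± 0.16 (limma adjusted p = 0.0104), and without input replicate 1 it was -0.52 and not called (limma adjusted p = 0.0595).

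Nr4a3, the close relative of Nr4a1, ran the other way. Nr4a3 (ENSMUSG00000028341) had 21.5, 20.0 and 21.3 TPM in the P7 IP libraries, 18.7, 18.05 and 20.6 TPM in the P14 IP libraries and 12.9, 13.7 and 13.6 TPM in the P21 IP libraries, against 18.7 and 21.0 TPM in the P7 input libraries. P7, P14 and input libraries overlapped, and all 3 P21 libraries were below them. The log2 change was -0.13 ± 0.067 for P14 IP against P7 IP (limma adjusted p = 0.149) and -0.48 ± 0.067 for P21 IP against P14 IP (limma adjusted p = 0.000643). P21 IP against P7 IP gave -0.61 ± 0.067 (limma adjusted p = 1.84e-05), and both falls were called in all 21 alternative settings. Nr4a2, the remaining gene of the family and no member of the group, had means of 31.2 TPM in P7 IP, 30.0 TPM in P14 IP and 29.6 TPM in P21 IP, with no call between neighbouring ages.

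As a group, the members had a median log2 change of 1.45 for P14 IP against P7 IP, beside 0.034 over all genes tested, and of 0.080 for P21 IP against P14 IP, beside -0.075. All P14 libraries lay above all P7 IP libraries for 9 members, and for 31.1% of all genes tested. The libraries of P14 and P21 overlapped for 5 members, Fos, Egr1, Egr2, Egr4 and Nr4a1. All P21 libraries lay above all P14 libraries for Fosb, Junb, Egr3 and Npas4 and for 13.7% of all genes, and below them for Nr4a3 and for 30.1% of all genes. Over the whole span, P21 IP against P7 IP, 9 were called higher and 1 lower, where 27.3% of all genes were called higher and 32.6% lower. Among those that rose, the P21 mean was 2.27 times the P7 mean for Egr2 and up to 10.2 times for Fosb. These comparisons share libraries and are not independent of each other. In the alternative settings, all 208 values of members for P14 IP against P7 IP, and as many for P21 IP against P7 IP, kept their direction and their side of the threshold.

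**Figure D2:**
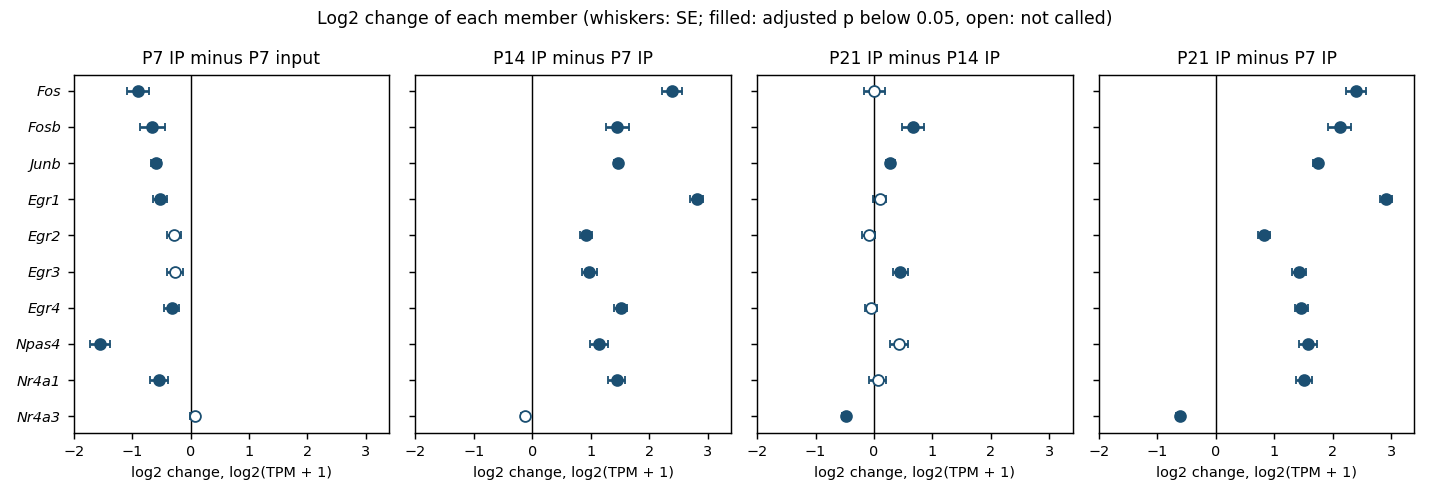
Log2 change on the log2(TPM + 1) scale (horizontal axes) of each gene (rows) in 4 comparisons, with SE whiskers, filled points where the limma adjusted p is below 0.05 and open points elsewhere. The 9 filled points of P14 IP minus P7 IP lie between 0.92 and 2.81. For P21 IP minus P14 IP the points of Fos, Egr1, Egr2, Egr4 and Nr4a1 are open and lie between -0.091 and 0.098, and that of Npas4 is open at 0.43.

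The step from P14 to P21 minus the step from P7 to P14 was below 0 for all 10 members and called for 7 of them and in the other direction for none, where 16.8% of all genes tested were called below 0 and 7.46% above (10.4% and 11.9% with median-of-ratios scaling). It was -2.72 ± 0.19 for Egr1 (limma adjusted p = 0.000105), -2.39 ± 0.30 for Fos and -1.57 ± 0.19 for Egr4. Nr4a1, Junb and Egr2 followed at -1.38, -1.19 and -1.01. For Nr4a3 the called value of -0.35 ± 0.12 (limma adjusted p = 0.0491) goes with a fall that was larger in the second week, and it kept its call in 5 of 21 alternative settings. Fosb (-0.79), Npas4 (-0.71) and Egr3 (-0.52), the genes whose P21 libraries all lay above their P14 libraries along with Junb, were not called. Fosb was called with a pseudocount of 0.1 TPM (-1.56, limma adjusted p = 0.0461), Npas4 without P7 IP replicate 2 (-0.86) or P21 IP replicate 3 (-0.83), and Egr3 without P7 IP replicate 3 (-0.64). The median of all genes for this difference was -0.099, and 0.032 with median-of-ratios scaling, and all 10 members lay below the first.

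Summed over the 10 genes, the mRNAs took 101.7 to 122.2 TPM in the P7 IP libraries, 338.3 to 345.2 TPM in the P14 IP libraries and 367.8 to 384.9 TPM in the P21 IP libraries, against 154.2 to 159.7 TPM in the P7 input libraries. The ages did not overlap, and the P7 IP libraries were below the input. The make-up of the sum, which is comparable between genes because TPM is per transcript length, also differed. Egr1 made up 10.7% to 12.6% of it in P7 IP, 27.0% to 30.8% in P14 IP and 26.7% to 29.7% in P21 IP, against 12.3% to 12.8% in P7 input. Nr4a3 took 16.5% to 21.1% in P7 IP, 5.23% to 6.08% in P14 IP and 3.51% to 3.59% in P21 IP, against 12.1% to 13.2% in P7 input. Egr3 had the highest mean level of the group at P7, in IP and input alike, and Egr1 the highest at P14 and P21. Npas4 took 4.21% to 5.05% of the sum in P7 input, above its share in every IP library, which ran up to 2.30%. No library was at the same end for every gene: P7 IP replicate 1 was the lowest of its age for 7 members, and P21 IP replicate 2 the highest of its age for 6.

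**Figure D3:**
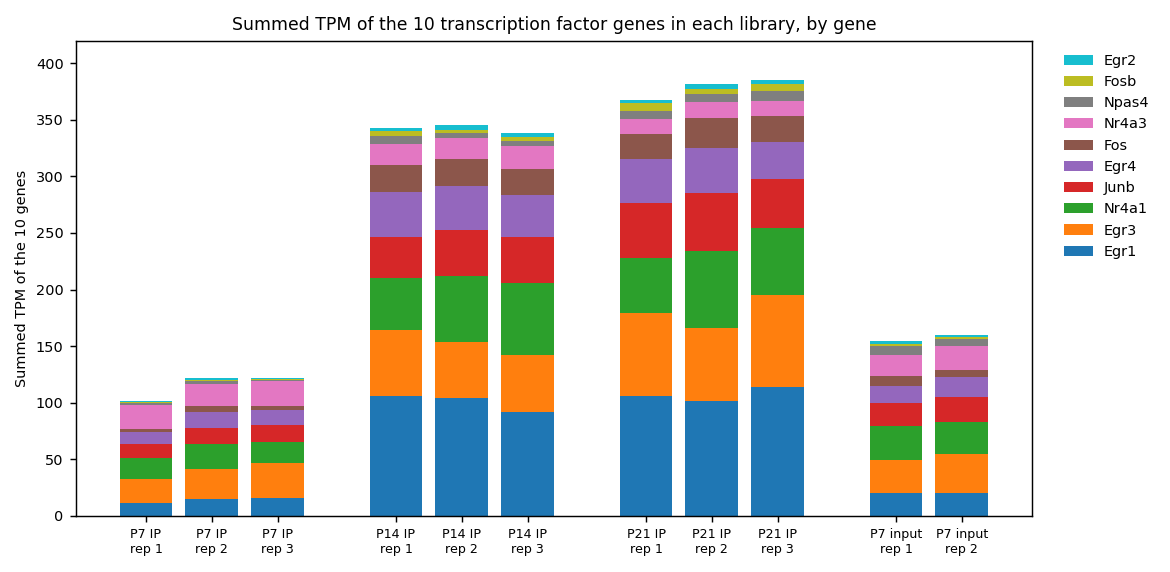
Summed TPM of the 10 genes (vertical axis, from 0) in each of the 11 libraries, stacked by gene. The P14 and P21 IP stacks, 338.3 to 384.9 TPM, stand well above those of P7 IP and P7 input, and the Egr1 segment at the base widens most.

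For P7 IP against P7 input the members' median log2 change was -0.53 and that of all genes -0.33. Set against the median of all genes, Npas4 was at -1.22, Fos at -0.57, Fosb at -0.32 and Junb at -0.26, Egr2, Egr3 and Egr4 were between 0.0054 and 0.064, and Nr4a3 was at 0.40. These calls depended on the scaling. With median-of-ratios scaling the median of all genes was 0.057, and Fos and Npas4 alone were called lower; with quantile normalisation it was 0.029, and Npas4 alone was. Nr4a3 was called higher under both (0.54 and 0.47), and changes above 0 were found for Egr2 and Egr4 under both and for Egr3 under the first. The input holds RNA of all cells and compartments, and its group pairs a Cre-positive with a Cre-negative library.

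Partner proteins and other early factors give the setting in which the 10 act. Jund, the abundant Jun protein that pairs with Fos proteins in resting cells, was at 346.2 TPM in P7 IP, 291.6 TPM in P14 IP and 357.8 TPM in P21 IP, with no call between neighbouring ages. Jun rose at P14 to 19.4 TPM, against 9.60 TPM at P7 (log2 change 0.95 ± 0.092, limma adjusted p = 1.33e-05). Arnt2, the main partner of Npas4 in neurons, had means of 47.1 TPM in P7 IP, 46.9 TPM in P14 IP and 54.6 TPM in P21 IP, with log2 changes of -0.0054 ± 0.060 for the first step and 0.21 ± 0.060 for the second (limma adjusted p = 0.951 and 0.0236). Of 12 partner genes 6 were called higher and 1 lower for P14 IP against P7 IP, where 26.7% and 22.8% of all genes were. For P21 IP against P14 IP 4 partners were higher and none lower, where 8.53% and 19.7% of all genes were. Rxra, a retinoid X receptor with which Nr4a1 can pair, rose in both steps (0.91 and 0.31), and the stress factor Atf4 fell in the first (-0.51). For P7 IP against P7 input, 3 partners were higher and 7 lower, with Maf lowest (-2.50), where 18.6% and 51.1% of all genes were.

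Among the other early transcription factors and cofactors, 20 of 21 were tested. For P14 IP against P7 IP 10 were called higher and 5 lower (median 0.27), where 26.7% and 22.8% of all genes tested were. Jdp2, which pairs with Jun and represses AP-1 sites, had the largest rise: it averaged 31.0 TPM in P7 IP, 113.2 TPM in P14 IP and 169.1 TPM in P21 IP, with log2 changes of 1.83 ± 0.086 and 0.58 ± 0.086 (limma adjusted p = 2.30e-07 and 0.000899). Crem, whose short form ICER represses CRE sites, rose by 1.63 and Ier5 by 1.37 at P14, and Ier5 by 0.86 more at P21. The falls were those of Klf6 (-0.82), Nfil3 (-0.62), Klf2 (-0.56), Nab1 (-0.51) and Fosl2 (-0.41). Nab1 and Nab2 encode corepressors that bind Egr proteins, and they moved apart: Nab2 was 0.75 higher at P14, while Nab1 fell again at P21 (-0.58). For P21 IP against P14 IP the list had 2 higher, Ier5 and Jdp2, and Nab1 lower, where 8.53% and 19.7% of all genes were. For P7 IP against P7 input, in TPM, 4 were higher, among them Jund (0.70) and Jdp2 (0.56), and 11 lower, with Klf4 (-1.50) and Jun (-1.40) lowest. Over all genes tested, 18.6% were called higher and 51.1% lower.

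Of 30 activity-induced genes that are not transcription factors, 20 were called higher and 2 lower for P14 IP against P7 IP (median 0.80). For all genes tested the shares were 26.7% and 22.8%. For P21 IP against P14 IP 11 of the 30 were higher and 3 lower (median 0.30), where 8.53% and 19.7% of all genes were. Arc, a synaptic gene induced in the same early wave, had 2.84, 5.39 and 4.89 TPM in the P7 IP libraries, 43.1, 61.1 and 48.2 TPM in the P14 IP libraries and 68.7, 95.8 and 73.8 TPM in the P21 IP libraries, against 8.45 and 8.01 TPM in the P7 input libraries. Its 3 ages did not overlap, with log2 changes of 3.29 ± 0.20 for P14 IP against P7 IP and 0.64 ± 0.20 for P21 IP against P14 IP (limma adjusted p = 7.13e-07 and 0.0350). Nrn1, which encodes the surface protein neuritin, rose by 2.60 in the first step, and Nptx2, a pentraxin secreted at excitatory synapses, by 0.94 and the prostaglandin enzyme gene Ptgs2 by 0.84 in the second. Sik1, a kinase that restrains CREB coactivators, fell in both steps (-0.42 and -0.62). At P7, 4 of the 30 were higher and 18 lower in IP than in input, where 18.6% and 51.1% of all genes tested were.

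Of the 31 analysed regulators upstream of early genes, 16 were called higher and 3 lower for P14 IP against P7 IP (median 0.26). The shares of all genes tested were 26.7% and 22.8%. For P21 IP against P14 IP 5 regulators were higher and 4 lower (median 0.039), where 8.53% and 19.7% of all genes were. The calcineurin subunit gene Ppp3r1 rose by 1.32 and the kinase gene Map2k1 by 1.13 in the first step, in which Rps6ka1 fell by 1.00. In the second step Camkk1 rose by 0.62 and the SRF partner Elk1 by 0.51, while Mapk3, which encodes the kinase ERK1, fell to 237.7 TPM in P21 IP, against 387.9 TPM in P14 IP (log2 change -0.70 ± 0.064, limma adjusted p = 5.85e-05). At P7, 5 of the 31 were higher and 21 lower in IP than in input, where 18.6% and 51.1% of all genes tested were.

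**Figure D4:**
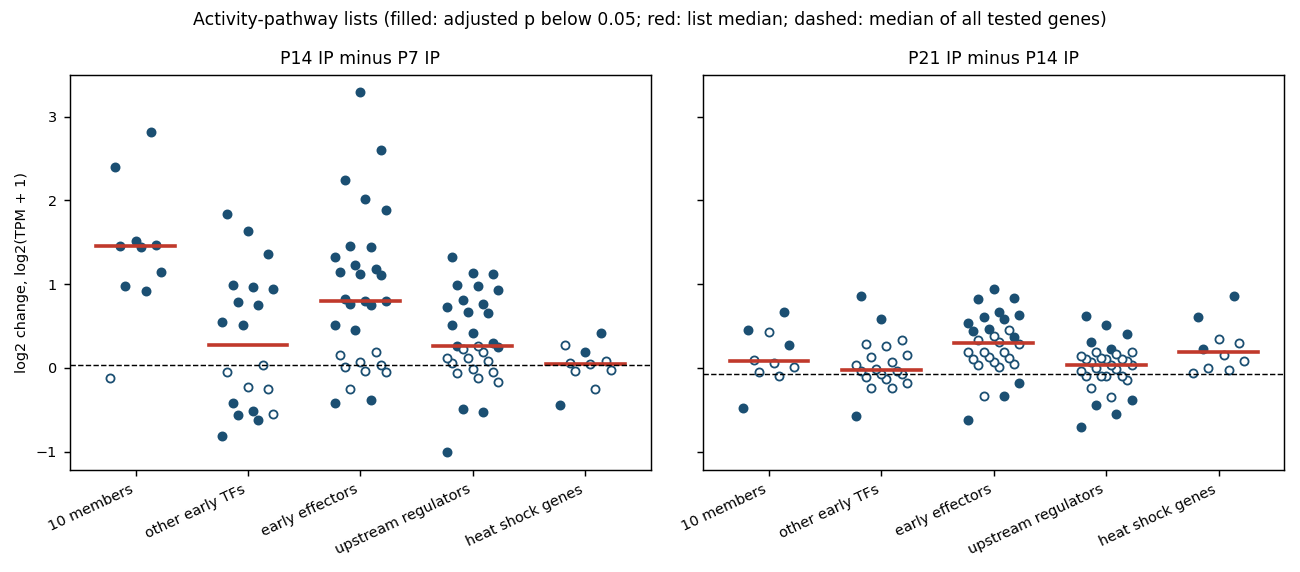
Log2 change on the log2(TPM + 1) scale (vertical axis) of each gene of 5 lists for P14 IP minus P7 IP and P21 IP minus P14 IP, filled where the limma adjusted p is below 0.05. The red lines are list medians, 1.45 and 0.080 for the 10 members, and the dashed line is the median of all genes tested.

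Genes that tissue handling can induce and markers of other cells were measured beside these changes. Of 10 heat shock genes 2 were higher and 1 lower for P14 IP against P7 IP (median 0.049), where 26.7% and 22.8% of all genes were. For P21 IP against P14 IP 3 were higher, Hspa1b (0.86), Hspa1a (0.60) and Hspa8, and none lower, where 8.53% and 19.7% of all genes were. At P7, 1 was higher and 9 lower in IP than in input, where 18.6% and 51.1% of all genes tested were. Hspa1a and Hspa1b are near-identical copies whose reads may have been split between them, and both stayed under 4 TPM in every IP library. Their part in the rise of Fosb, Junb and Egr3 at P21 was not tested. Summed astrocyte markers were at 141.0 to 195.1 TPM in P7 IP, 289.1 to 349.7 TPM in P14 IP and 417.9 to 550.8 TPM in P21 IP, against 3101 to 3406 TPM in P7 input. The P14 and P21 IP sums lay above those of P7 IP for both kinds of glia, and for oligodendrocytes the P14 and P21 IP sums exceeded the P7 input. The oligodendrocyte sums were 32.9 to 36.8 TPM in P7 IP, 303.5 to 410.0 TPM in P14 IP and 510.0 to 732.1 TPM in P21 IP, against 199.9 to 270.3 TPM in P7 input. The microglia sums were 28.3 to 33.8 TPM in P7 IP, 44.6 to 54.4 TPM in P14 IP and 47.6 to 60.1 TPM in P21 IP, against 198.4 to 253.5 TPM in P7 input. The precursor sums were 16.2 to 19.8 TPM in P7 IP, 28.6 to 36.1 TPM in P14 IP and 26.4 to 37.3 TPM in P21 IP, against 206.3 to 234.4 TPM in P7 input. For P14 IP against P7 IP 8 of 10 astrocyte, 10 of 10 oligodendrocyte, 5 of 6 precursor and 8 of 10 microglia markers were called higher, as were 4 of 12 inhibitory and 1 of 10 vascular markers, while 1 microglia and 2 inhibitory markers were called lower. For P21 IP against P14 IP 9 oligodendrocyte, 4 inhibitory, 3 astrocyte and 1 microglia markers were higher, and 2 inhibitory and 1 precursor markers lower. The part of these cells in the members' changes was not tested. The inhibitory sums were 98.99 to 110.4 TPM in P7 IP, 94.8 to 104.6 TPM in P14 IP and 109.7 to 136.8 TPM in P21 IP, against 1036 to 1176 TPM in P7 input. Those of vascular markers were 21.4 to 32.7 TPM in P7 IP, 25.8 to 29.4 TPM in P14 IP and 20.95 to 41.0 TPM in P21 IP, against 287.0 to 308.2 TPM in P7 input, so the IP libraries of all ages overlapped.

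Genes other than the members were compared with the members' median course over the 9 IP libraries, as the root-mean-square difference of centred log2 values. Of 10723 candidates the nearest were Igsf11, Dbndd2, Ensa, Mxi1, Ttc7b and Rasgrf1, at 0.064 to 0.080. Rasgrf1, which encodes a calcium-responsive activator of Ras, averaged 15.3 TPM in P7 IP, 43.3 TPM in P14 IP and 47.4 TPM in P21 IP. The members, which were not picked by this distance, lay at 0.11 for Junb, the nearest, 0.65 for Egr1 and 0.94 for Nr4a3, the farthest. Because the other genes were picked by it, their smaller distances say nothing about how alike the members are.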

How the data were processed

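Polyadenylated RNA of 9 ribosome pull-downs and 2 whole-tissue lysates was sequenced (labels' protocols). The authors deposited TPM values for 77179 Ensembl gene IDs in 11 columns, assigned here by name. The submitters' processing notes list fastp 1.0.1, Salmon 1.10.0, DESeq2 1.46.0 and mm39, without saying what each did; the annotation and strand setting are stated in no source used here. TPM keeps no depth, so precision rests on the spread between libraries.

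Symbols matched 50886 IDs. The 19008 genes that reached 1 TPM in 2 or more libraries were fitted on log2(TPM + 1) with limma 3.58.1 (R 4.3.3), as 4 group means over the 11 libraries (7 residual degrees of freedom), with a trended prior and p-values adjusted by Benjamini-Hochberg. The code was tested on simulated data. The members and gene lists were chosen with earlier results of these data known. Named genes are the members, 10 cell type markers, any gene of the lists of partners and other early factors, up to 2 rises and 2 falls per other list and comparison, and the 6 genes nearest the members' median course among those averaging 5 TPM in their highest IP group. The second step of Arc, Hspa8 and Opalin were named after their values were seen. Rps6ka4 was not analysed here.

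Each result was recomputed with pseudocounts of 0.1 and 5 TPM; without the filter or keeping means of 5 TPM or more; after median-of-ratios, quantile or gene-subset rescaling (109 mitochondrial, haemoglobin and ribosomal protein genes removed); with an untrended prior, a replicate block or the compared groups only; and without each library. Leaving out a library of a group outside a comparison changes the shared spread and the adjusted p-values, but not the log2 change. Promoter windows are from RefSeq (GRCm38.p6). Python 3.11.15 with matplotlib 3.10.9 made the figures.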

Additional observations from a re-analysis of the deposited data

Results flagged for a closer look

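For 7 of the 10 genes the second weekly step (P21 IP minus P14 IP) differed from the first (P14 IP minus P7 IP) by limma's test of that difference at an adjusted p below 0.05, all 7 below 0, where 16.8% of all genes tested were called below 0 and 7.46% above. The difference on the log2(TPM + 1) scale was -2.72 for Egr1, -2.39 for Fos, -1.57 for Egr4, -1.38 for Nr4a1, -1.19 for Junb, -1.01 for Egr2 and -0.35 for Nr4a3. Egr1, Fos, Egr4, Nr4a1, Junb and Egr2 had most of their rise in the first step, and their calls were made in every alternative setting that tested them. Nr4a3 had most of its fall in the second step, and its call was lost in 16 of 21 settings. Both steps use the P14 libraries.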

How the results depend on the processing

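The calls of members for P14 IP and P21 IP against P7 IP held under every alternative that tested them; a mean of at least 5 TPM left out Fosb and Egr2. For P7 IP against P7 input, 7 lower and 0 higher as reported (51.1% and 18.6% of all genes) became 2 lower and 1 higher with median-of-ratios scaling (29.2% and 35.9%), and 1 lower and 1 higher with quantile normalisation (31.7% and 32.9%). The sign turned under these scalings for Egr2 (0.027 and 0.23) and Egr4 (0.13 and 0.14), and for Egr3 with the first (0.21). Nr4a3 turned to -0.031 when mitochondrial, haemoglobin and ribosomal protein genes were removed, and ran from -0.0069 to 0.15 as each library was left out.

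For P21 IP against P14 IP, 1 member was higher with no filter on low values (2.66% of all genes), and 0 to 4 were as each library was left out (5.93% to 8.88%), with 0 without P21 replicate 1. Uncalled values near 0 turned for Egr2 (0.0022) and Egr4 (0.064) with median-of-ratios scaling and for Egr4 (0.032) with quantile normalisation. With single libraries left out they ran from -0.072 to 0.058 for Fos, -0.11 to 0.039 for Egr4 and -0.075 to 0.19 for Nr4a1. The cause was not tested.

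With the replicate block, 8 members were lower in P7 IP than in P7 input (51.8% of all genes), 9 higher for P14 IP against P7 IP (27.3%), 3 higher and 1 lower for P21 IP against P14 IP (8.69% and 20.7%), and 6 had unequal steps (25.6% in either direction). The sample titles give libraries of the same number no other link. Deviations of same-numbered IP libraries correlated at 0.012 to 0.18 over 9 pairs, and 1 pair exceeded 0.1. Those of differently numbered IP libraries correlated at -0.12 to 0.102 over 18 pairs, and 1 pair exceeded 0.1. Depth is unknown, groups hold 2 or 3 libraries, and whole-tissue levels at P14 and P21 were not analysed here.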

Other observations

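For several early factors outside the group the difference between the steps had the opposite sign. The second step minus the first was called above 0 for Nfil3 (0.75), Klf6 (0.64), Klf2 (0.53) and Fosl2 (0.49). These all fell in the first step and had no call in the second. The difference was called below 0 for 8 others, with Crem (-1.37), Jdp2 (-1.25) and Jun (-1.08) lowest (limma, adjusted p below 0.05). Of all genes tested, 7.46% were called above 0 and 16.8% below. Nfil3 encodes a bZIP repressor, Klf2 and Klf6 zinc finger factors and Fosl2 a Fos relative. Of the 10 heat shock genes, the chaperonin gene Hspe1 alone was called in this contrast (0.44).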
